A study of Homo sapiens with 6 samples.

Results

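TRAIL (TNFSF10), the receptors it binds, the related death receptor FAS and the proteins that relay or block their signal were examined in SUM149 cells after transfection with siRNA against TIG1. The set comprised 10 genes of the 19775 that the array's annotation pairs with a probe set of their own, and it was read by every probe set annotated to 1 of these symbols, 46 of the 54613 tested. SUM149 is a human inflammatory breast cancer cell line, and TIG1 (current symbol RARRES1) is a retinoid-inducible gene. The siControl group (a pool that targets no gene) and the siTIG1 group (a pool against TIG1) held 3 arrays each, and both pools were used at 200 nmol/L. Oligofectamine was the carrier for both, in medium with serum, insulin and hydrocortisone. The control pool was a siGENOME product and the TIG1 pool an ON-TARGET Plus product, so the target and the siRNA chemistry cannot be told apart. The effect on these 10 genes is given as log2 signal of siTIG1 minus siControl, per probe set.

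TRAIL is a trimeric ligand of the tumour necrosis factor family. It binds the death receptors DR4 (TNFRSF10A) and DR5 (TNFRSF10B), whose death domains recruit the adaptor FADD and the initiator caspase CASP8, as FAS does when it meets its own ligand. TNFRSF10C and TNFRSF10D also bind TRAIL but lack a working death domain and act as decoys. CFLAR (c-FLIP) resembles CASP8 without its protease activity and competes with it at the receptor. Further down, XIAP binds and inhibits caspases, while BIRC2 (cIAP1) is a ubiquitin ligase of the TNF receptor complex. TNFSF10 is known as an interferon-inducible gene.

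The stretch before the start of TNFSF10 is shown because this ligand gene is known to respond to interferon, and that of BIRC2 because 1 of its starts also held the core of the interferon response element. The sequences are the 250 bases before an annotated start, from RefSeq, build GRCh38.p14, 5′ to 3′ on the gene's strand. Capitals mark the core GAAANNGAA or its reverse complement.

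TNFSF10, chr3:172523431-172523680, minus strand: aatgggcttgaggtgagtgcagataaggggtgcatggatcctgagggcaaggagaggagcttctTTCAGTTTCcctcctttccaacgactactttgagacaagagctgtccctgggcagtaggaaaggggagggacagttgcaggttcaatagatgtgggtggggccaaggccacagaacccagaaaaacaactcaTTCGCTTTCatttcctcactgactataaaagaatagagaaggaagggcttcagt

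BIRC2, chr11:102346964-102347213, plus strand: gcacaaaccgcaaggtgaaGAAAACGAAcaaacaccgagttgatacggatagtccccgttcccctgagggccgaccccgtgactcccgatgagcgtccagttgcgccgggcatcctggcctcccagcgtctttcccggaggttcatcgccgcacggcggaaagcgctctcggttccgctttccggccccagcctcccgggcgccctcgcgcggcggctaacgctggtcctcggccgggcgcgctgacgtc

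The TNFSF10 window held 2 matches, whose first letters lay 186 and 54 bases before the start, both in reverse complement. The BIRC2 window held 1 match, 231 bases before the start. In all, 16 windows of 6 members were searched on both strands (TNFSF10, FAS, CFLAR, CASP8, BIRC2 and XIAP), and promoters of the 4 TRAIL receptor genes were not used here. The third window with a match belonged to 1 of the 4 starts of CFLAR. Of all 35116 windows of this length, 6.88% held the core. The gamma-activated sequence TTCNNNGAA was found in 1 window, of CASP8 (6.57% of all windows), and the AP-1 element TGANTCA in 3, of CFLAR, CASP8 and FAS (6.57% of all windows). No window held the forkhead element GTAAACA (2.98% of all windows), and 9 held the GC box GGGCGG (42.6% of all windows). Windows of the same gene can overlap and are not independent. A GC box of FAS and a GC box of XIAP were each counted in 2 windows. Each match describes letters only.

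The arrays differed among themselves before any of these genes was considered. Pairwise correlations over all probe sets were 0.998 to 0.999 within siTIG1 and 0.998 between siControl replicates 1 and 2. Those 2 controls correlated with the siTIG1 arrays at 0.992 to 0.993. The siControl replicate 3 array correlated with the other controls at only 0.985, and with the siTIG1 arrays at 0.982. Counts of calls below are therefore given with and without that array. The targeted gene RARRES1 was lower by 1.28, 1.24 and 0.83 on its 3 probe sets, none past the threshold (limma adjusted p of 0.20, 0.23 and 0.27). The differences were smaller without siControl replicate 3, at -0.75, -0.68 and -0.46, and the first and second passed (limma adjusted p of 0.024, 0.043 and 0.16). On 221872_at the array labelled siTIG1 replicate 1 read 12.69, inside the control range of 12.61 to 13.74. The 3′ minus 5′ signal of the ACTB control probe sets is a measure of RNA integrity. It was 2.62 to 3.21 on the controls and 2.14 to 2.34 on siTIG1. These groups did not overlap (exact 2-sided permutation p = 0.1, the smallest possible). For GAPDH it was 0.46 to 0.57 on the controls and 0.46 to 0.47 on siTIG1, with overlap. Epithelial markers were well measured, with 8 of 8 means above the median probe set (CLDN4 lowest at 8.95, KRT7 highest at 14.42) and a summed log2 level of 16.40 to 16.41 on the controls and 16.46 to 16.54 on siTIG1. Of 8 leukocyte markers 3 lay above the median probe set (summed levels of 10.87 to 11.12 and 11.04 to 11.07). Their means ran from 6.27 (LYZ) to 9.42 (CD79A), and PTPRC, which marks leukocytes as a class, read 6.55 to 6.77. Of 6 endothelial markers 3 lay above the median probe set (10.76 to 10.82 and 10.81 to 10.84), and of 6 fibroblast markers 4 did (11.79 to 12.06 and 12.35 to 12.46). The difference in the fibroblast sum lay in FAP, at 11.13, 11.13 and 10.17 on the controls and 11.71, 11.64 and 11.85 on siTIG1 (limma adjusted p = 0.11), and the other 5 differed by -0.08 to 0.09. The epithelial marker KRT19 rose by 1.00 (limma adjusted p = 0.018), and no leukocyte, endothelial or fibroblast marker passed. The part of RNA integrity, of FAP and KRT19 and of siControl replicate 3 in the results was not tested, other than by leaving out that array.

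The clearest result for the 10 genes was a lower signal of the TRAIL receptor TNFRSF10A after transfection against TIG1. The ligand TNFSF10 read higher, from low signals and less firmly. In RNA from whole cultures, a change in the number of cells that express a gene and in RNA per cell cannot be told apart. CFLAR rose on 1 of its 14 probe sets. A probe set is counted as changed, or called, where the adjusted p of limma over all 54613 probe sets is under 0.05. Of the 46 probe sets 3 rose, 1 fell and 42 did not pass, which is 6.52% higher and 2.17% lower, beside 2.14% and 2.87% of all probe sets tested. The 3 rises were on TNFSF10 (2) and CFLAR (1), and the fall was on TNFRSF10A. Under alternative processing the TNFRSF10A call was kept in 14 of 14 fits. The TNFSF10 calls were kept in 5 of 11 and 4 of 13, and the CFLAR call in 5 of 12. Probe sets of 1 gene share their target and are not independent, so the share of rises rests on 2 genes, and the share of falls lay near the background. The median difference of the 46 was 0.03 and that of all probe sets 0.01, and the median size was 0.09 in both. Without siControl replicate 3, 9 of the 46 rose (19.6%, beside 7.87% of all probe sets) and 3 fell (6.52%, beside 11.0%). The genes with a rise were then TNFSF10, FAS, CFLAR and BIRC2, and the gene with falls was TNFRSF10A. All 4 probe sets called with all arrays were called there too, with the same sign.

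**Figure D1:**
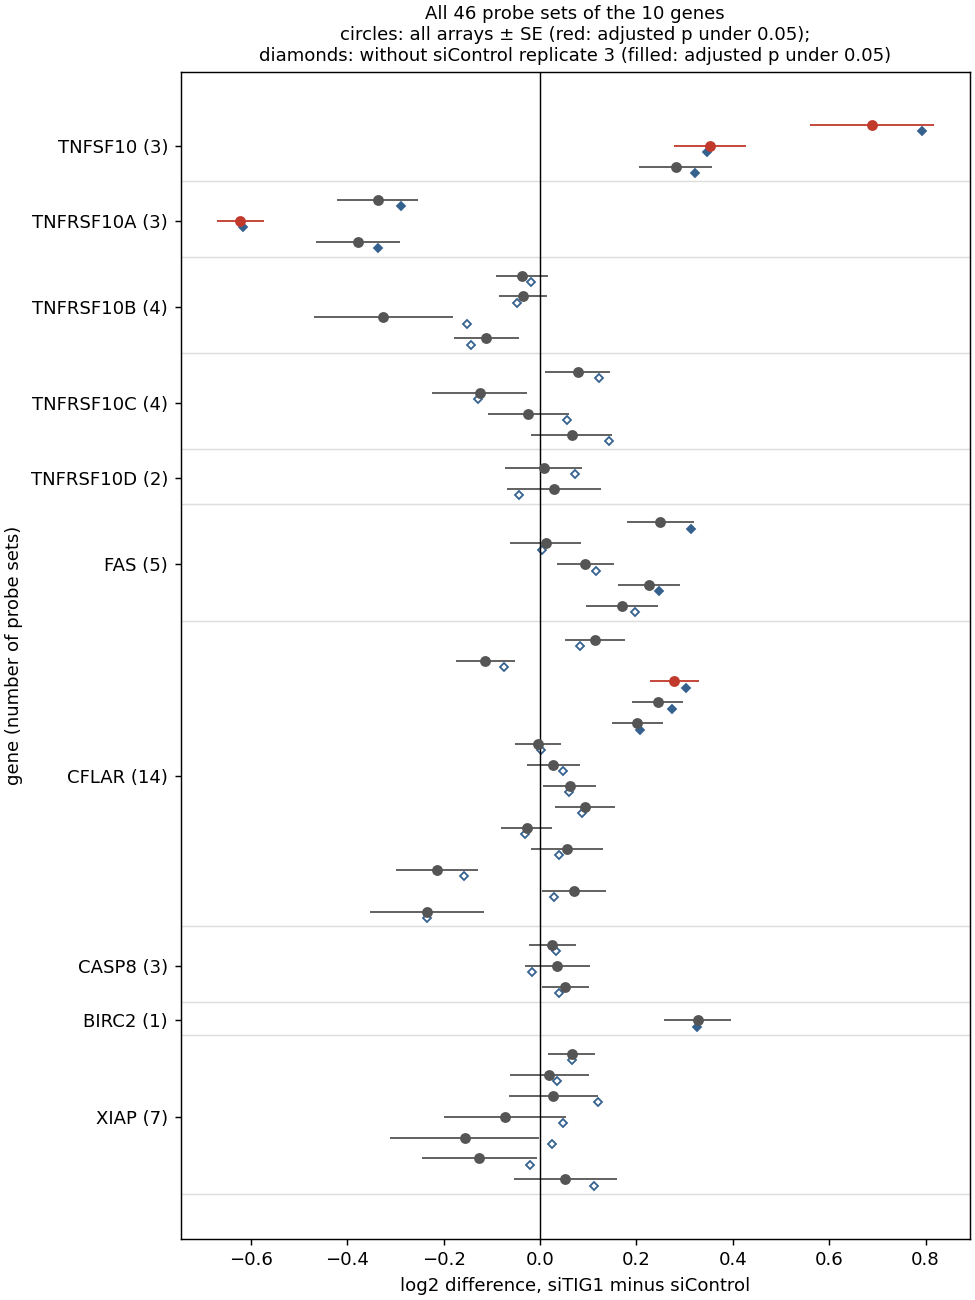
Log2 difference, siTIG1 minus siControl, on the x axis for all 46 probe sets, grouped by gene on the y axis. Circles with SE bars use all arrays and diamonds leave out siControl replicate 3. The 3 TNFSF10 probe sets lie to the right of 0, the 3 TNFRSF10A probe sets to the left, and the CFLAR probe sets spread from -0.23 to 0.28.

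All 3 TNFSF10 probe sets read higher in every siTIG1 array than in any control. On 202687_s_at the controls read 5.52, 5.80 and 5.97 and the siTIG1 arrays 6.44, 6.60 and 6.33. The groups did not overlap there, although the controls spread over more of the scale than the siTIG1 arrays. The probe set rose by 0.69 ± 0.13 (SE, limma adjusted p = 0.035), from a mean of 5.76 ± 0.23 to 6.45 ± 0.14 (SD, n = 3 each), or 1.61-fold.

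A further TNFSF10 probe set, 202688_at, read 6.31, 6.44 and 6.35 on the controls and 6.72, 6.60 and 6.83 on siTIG1. It rose by 0.35 ± 0.07 (SE), or 1.28-fold, with a limma adjusted p = 0.0499 that lay at the threshold. The third, 214329_x_at, read 5.67, 5.52 and 5.71 against 6.02, 5.85 and 5.88. Its difference of 0.28 ± 0.08 (SE, 1.22-fold) did not pass (limma adjusted p = 0.10), although its groups did not overlap either. Without siControl replicate 3 all 3 passed, at 0.79, 0.35 and 0.32 (limma adjusted p of 0.00071, 0.013 and 0.015). Leaving out any other single array ended both calls, with an adjusted p of up to 0.15 on 202687_s_at and 0.18 on 202688_at. The call on 202688_at was also lost with quantile normalization (limma adjusted p = 0.070) and with median centring (0.065), and the replicate block ended both calls (0.092 and 0.14). All TNFSF10 means lay below the median probe set mean of 7.89. The deposited values carry no detection call, so these low signals are not shown to lie above background and the measured folds may be too small.

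The TRAIL receptor TNFRSF10A (DR4) had the lowest adjusted p of the set. On 231775_at the controls read 11.89, 11.81 and 11.87 and the siTIG1 arrays 11.23, 11.24 and 11.23. The 3 siTIG1 values were nearly identical and lay far below the closest control. The signal fell by 0.62 ± 0.05 (SE, limma adjusted p = 0.0034), from 11.86 ± 0.04 to 11.24 ± 0.0044 (SD, n = 3 each), to 65.0% of the control level. The call was kept under all 14 alternatives run for it, of which 6 left out 1 array. The highest adjusted p by limma among the 14 was 0.042.

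The other 2 TNFRSF10A probe sets read lower too, by smaller amounts. On 1552648_a_at the controls read 10.39, 10.62 and 10.65 and siTIG1 10.20, 10.16 and 10.30, a difference of -0.34 ± 0.08 (SE, limma adjusted p = 0.083). On 241371_at the controls read 10.55, 10.55 and 10.68 and siTIG1 10.28, 10.05 and 10.32, a difference of -0.38 ± 0.09 (SE, limma adjusted p = 0.065). Neither passed with all arrays, and the groups overlapped on neither. Both passed without siControl replicate 3, at -0.29 (limma adjusted p = 0.032) and -0.34 (limma adjusted p = 0.021). The array labelled siTIG1 replicate 1 had the highest RARRES1 signal of the siTIG1 arrays, at 10.72, 11.72 and 12.69 on its 3 probe sets. The controls read 11.04, 11.89 and 12.65 (replicate 1), 10.92, 11.88 and 12.61 (replicate 2), and 12.58, 13.55 and 13.74 (replicate 3). The siTIG1 replicate 1 array lay with the other siTIG1 arrays on all 6 probe sets of TNFSF10 and TNFRSF10A. Averaged over a gene's probe sets it stood 0.47 above the control mean for TNFSF10 and 0.43 below it for TNFRSF10A (deviation of -0.43). The other siTIG1 arrays stood at 0.43 and 0.43, and at -0.52 and -0.39. Whether these shifts depend on the RARRES1 level was not tested. With 3 against 3 arrays an exact 2-sided permutation test of a single value cannot go below p = 0.1, the value found for each of these 6 probe sets.

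**Figure D2:**
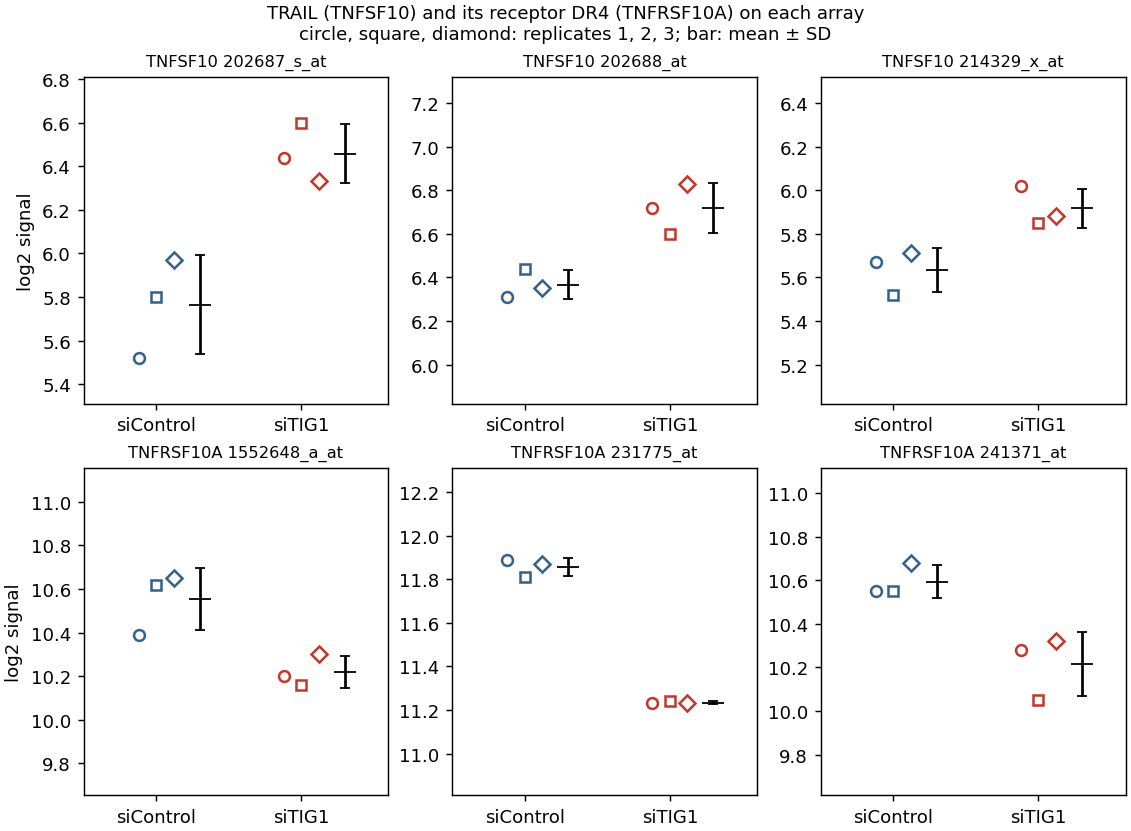
Log2 signal (y axis) of the 3 TNFSF10 and 3 TNFRSF10A probe sets on each siControl and siTIG1 array (x axis), 1 panel per probe set, each spanning the same 1.5 log2 units; black bars are mean ± SD of 3 arrays. The siTIG1 arrays lie above all controls in the upper row and below all controls in the lower row.

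TNFRSF10B (DR5), the other death receptor for TRAIL, gave 4 negative differences, from -0.33 to -0.03, and none passed. Its brightest probe set, 209295_at, read 11.98, 11.93 and 12.48 on the controls and 11.76, 11.83 and 11.83 on siTIG1. Every siTIG1 value lay below every control, but siControl replicate 3 stood 0.52 above the mean of the other controls. The difference was -0.33 ± 0.14 (SE, limma adjusted p = 0.29) with all arrays and -0.15 ± 0.06 (SE, limma adjusted p = 0.10) without that one. The 95% interval was -0.67 to 0.02 with all arrays and -0.28 to -0.02 without that one. A fall of the size seen for TNFRSF10A on 231775_at lay inside the wider interval only, and outside those of the other 3 TNFRSF10B probe sets, whose bounds with all arrays ran from -0.27 to 0.09.

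The decoy receptors showed no call in either fit. TNFRSF10C, which is anchored to the membrane by a lipid, read 7.26, 7.20 and 7.47 on the controls and 7.25, 7.37 and 7.24 on siTIG1 (234195_at). The difference of -0.02 ± 0.08 (SE) had a limma adjusted p = 0.91, and the 4 probe sets ranged from -0.12 to 0.08. TNFRSF10D read 7.08, 6.88 and 6.76 against 7.05, 6.85 and 6.90 on 227345_at, a difference of 0.03 ± 0.10 (SE, limma adjusted p = 0.91), and 0.01 on its other probe set. Groups overlapped on all 6 decoy probe sets. On the probe sets named, the 95% intervals ran from -0.23 to 0.18 for TNFRSF10C and from -0.20 to 0.26 for TNFRSF10D. The signs of both differences turned without siControl replicate 3 (0.06 and -0.04). A further 2 probe sets list TNFRSF10C beside a second symbol, stood outside the rule, and differed by -0.08 and 0.02 (limma adjusted p of 0.75 and 0.93).

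FAS, the receptor of FAS ligand, had 5 positive differences, of 0.01 to 0.25, of which none passed with all arrays. On 204780_s_at, its brightest, the controls read 9.72, 9.75 and 9.93 and the siTIG1 arrays 10.09, 10.02 and 10.03. The groups did not overlap, and siControl replicate 3 was the control nearest to siTIG1. The difference was 0.25 ± 0.07 (SE, limma adjusted p = 0.11) with all arrays, and without that array the probe set rose by 0.31 ± 0.06 (SE, limma adjusted p = 0.0041).

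A second FAS probe set, 216252_x_at, read 6.70, 6.57 and 6.69 against 6.89, 6.81 and 6.95, again without overlap. It differed by 0.23 ± 0.06 (SE, limma adjusted p = 0.11) and passed without siControl replicate 3 (0.25, limma adjusted p = 0.031). The other FAS probe sets overlapped between the groups. Among them 204781_s_at read 8.74, 8.74 and 8.72 on the controls and 8.89, 8.67 and 8.67 on siTIG1, a difference of 0.01 ± 0.07 (SE). Probe sets of this gene thus disagreed on size. The sign on 204781_s_at was not settled, since its difference was smaller than its SE. Its siTIG1 readings of 8.67 lay below every control, and only the reading of 8.89 lay above.

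CASP8, the initiator caspase that FADD brings to the receptors, stayed close to its control level. Its brightest probe set, 213373_s_at, read 10.89, 10.91 and 10.86 on the controls and 10.96, 10.93 and 10.93 on siTIG1. All siTIG1 values lay above the controls, by a margin of 0.02 between the nearest arrays. The difference of 0.05 ± 0.05 (SE) did not pass (limma adjusted p = 0.62), and its 95% interval of -0.06 to 0.17 leaves out a change as large as that of TNFSF10 or TNFRSF10A. The other 2 CASP8 probe sets differed by 0.03 and 0.04.

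CFLAR, the inhibitor of CASP8 at the receptor, gave different readings on its 14 probe sets, 9 positive and 5 negative. On 209939_x_at the controls read 10.73, 10.69 and 10.79 and the siTIG1 arrays 11.02, 11.00 and 11.03. The arrays within a group agreed to within 0.10 there, and the groups were well apart. The signal rose by 0.28 ± 0.05 (SE, limma adjusted p = 0.034), or 1.21-fold.

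Another CFLAR probe set, 210563_x_at, read 10.54, 10.51 and 10.61 against 10.79, 10.80 and 10.80, a difference of 0.24 ± 0.05 (SE) whose limma adjusted p = 0.0503 missed the threshold narrowly. On 210564_x_at the values were 9.51, 9.56 and 9.55 against 9.69, 9.75 and 9.79, a difference of 0.20 ± 0.05 (SE, limma adjusted p = 0.093). These 3 were the CFLAR probe sets without overlap between groups, and all 3 passed without siControl replicate 3 (limma adjusted p of 0.0042, 0.0066 and 0.037). The call on 209939_x_at was lost when any other single array was left out (adjusted p of up to 0.15), with trended robust eBayes (0.087) and with the replicate block (0.12).

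The remaining 11 CFLAR probe sets did not pass in either fit and ranged from -0.23 to 0.11, with 6 positive and 5 negative. The most negative were 239629_at (-0.23 ± 0.12 SE) and 235427_at (-0.21 ± 0.08 SE), whose groups overlapped. The CFLAR probe sets that passed in either fit all have names that end in x_at, a class that can bind several transcripts. The 5 CFLAR probe sets outside this class had no call in either fit and ranged from -0.23 to 0.06. Within the class, 6 of the 9 had no call either, and 209508_x_at had the lowest difference, at -0.11 ± 0.06 (SE). On each array 209939_x_at exceeded it by 1.92, 1.96 and 1.90 in the controls and by 2.32, 2.35 and 2.28 in siTIG1. This gap grew by 0.39 in siTIG1, and its groups did not overlap (exact 2-sided permutation p = 0.1, the smallest possible; the pair was chosen after its values were seen). CFLAR is spliced into long and short forms, and the form that each probe set reads was not worked out here. The 1 probe set that stands for CFLAR when genes rather than probe sets are tested, 211317_s_at, differed by 0.03 ± 0.05 (SE), so the CFLAR call depends on which probe set is read.

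**Figure D3:**
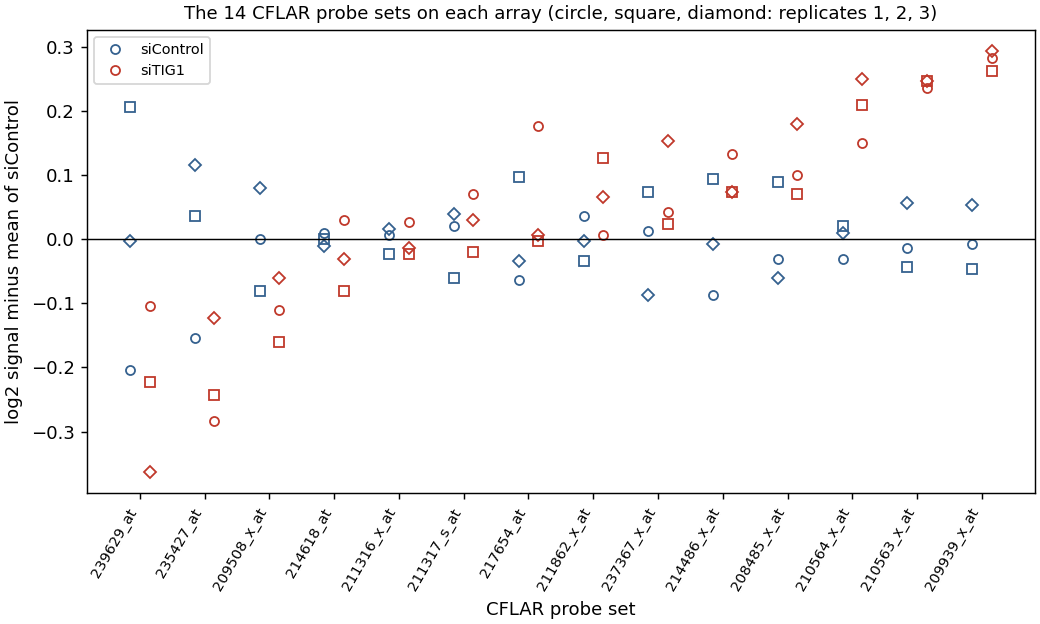
Log2 signal minus the mean of siControl (y axis) for the 14 CFLAR probe sets (x axis, ordered by difference) on each array. The 3 probe sets at the right have all siTIG1 arrays above all controls, and at the left 2 probe sets have lower siTIG1 means with overlapping groups.

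BIRC2 (cIAP1), measured by 1 probe set, just missed the threshold. On 202076_at the controls read 13.11, 13.13 and 13.12 and the siTIG1 arrays 13.33, 13.45 and 13.56. The controls agreed to within 0.02, replicate 3 included, while the siTIG1 arrays were more spread, and the groups did not overlap. The difference was 0.33 ± 0.07 (SE, 1.25-fold, limma adjusted p = 0.0524). Without siControl replicate 3 the difference stayed at 0.33 ± 0.07 (SE) and passed (limma adjusted p = 0.014). It also passed when 1 probe set per gene was tested (limma adjusted p = 0.045), on probe sets above the median mean (0.045), with quantile normalization (0.049) and with array weights (0.0096), and so in 5 of 14 alternatives. It missed with median centring (0.066), without x_at and s_at probe sets (0.054), with trended robust eBayes (0.078), with the replicate block (0.13) and with any other single array left out (up to 0.20).

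XIAP, the inhibitor of downstream caspases, showed no call on any of its 7 probe sets in either fit. Its brightest probe set outside the x_at class, 228363_at, read 9.57, 9.67 and 10.16 on the controls and 9.68, 9.72 and 9.54 on siTIG1. The siControl replicate 3 array stood 0.54 above the other controls and the groups overlapped. The difference was -0.16 ± 0.15 (SE, limma adjusted p = 0.65) with all arrays and 0.02 ± 0.07 (SE, limma adjusted p = 0.86) without that array, so its sign is not settled. The 7 differences ranged from -0.16 to 0.07, and from -0.02 to 0.12 without that array.

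**Figure D4:**
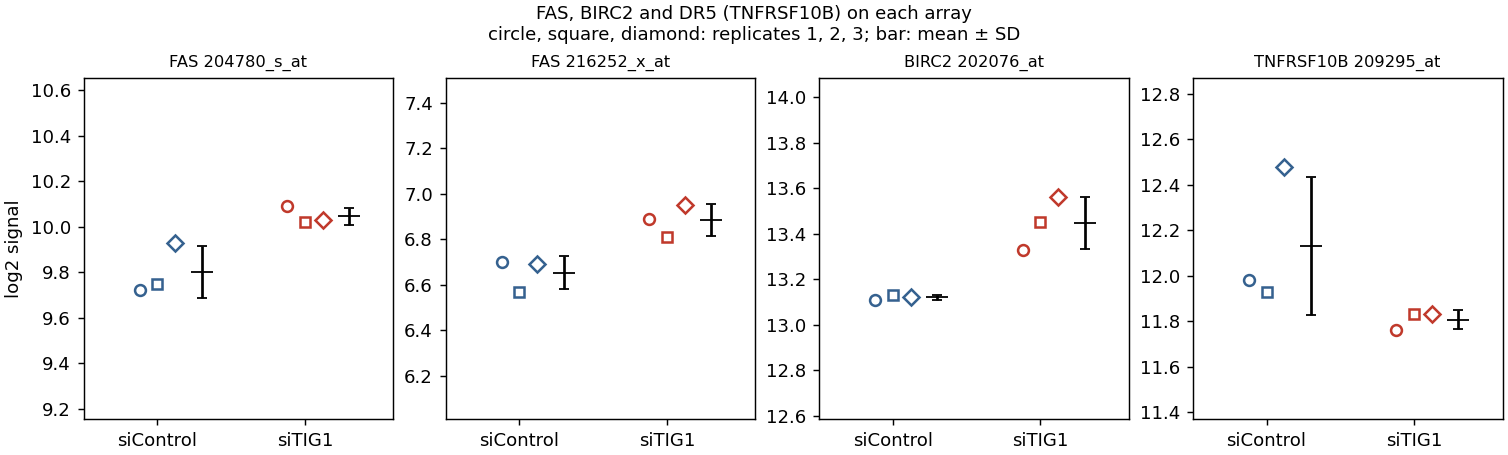
Log2 signal (y axis) of 2 FAS probe sets, the BIRC2 probe set and the brightest TNFRSF10B probe set on each siControl and siTIG1 array (x axis), 1 panel per probe set, each spanning 1.5 log2 units; black bars are mean ± SD of 3 arrays. The siTIG1 arrays lie above the controls for FAS and BIRC2, and the siControl replicate 3 array stands high for TNFRSF10B.

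Counting separation rather than the test, 11 of the 46 probe sets had all siTIG1 arrays above all controls (23.9%, beside 14.8% of all probe sets). They were the 3 of TNFSF10, 2 of FAS, 3 of CFLAR and 1 each of CASP8, BIRC2 and XIAP. In the other direction 4 had all siTIG1 arrays below all controls (8.70%, beside 13.0% of all probe sets), which were the 3 of TNFRSF10A and 1 of TNFRSF10B. TNFRSF10B, TNFRSF10C, TNFRSF10D, CASP8 and XIAP, with 20 probe sets between them, were the genes left without a limma call in either fit. With all arrays 0 of the 20 had an unadjusted p under 0.05 by limma, beside 19.1% of all probe sets. The genes were grouped by their lack of calls, so these counts of 0 are no separate result. Their differences ran from -0.33 to 0.08.

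Patterns over the 6 arrays were compared with those of TNFSF10 and FAS. The genes with the highest Pearson correlation to TNFSF10 on 202688_at, among 4486 genes that vary and lie above the median level, were RAP2B (0.981), TSPAN12 (0.980), SHOX2 (0.979), EHHADH (0.972) and RBM43 (0.969), and 183 genes reached at least 0.9. For FAS on 204780_s_at they were MAGED2 (0.999), CXCL3 (0.999), RNF144A (0.998), MR1 (0.997) and FCHO2 (0.996), with 238 genes at 0.9 or more. These correlations describe 6 points that share the group difference and the siControl replicate 3 array.

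The rest of the pathway was read from lists of 57 other genes, of which 50 had a probe set of their own and 113 probe sets in all. Of these 113, 3 rose (2.65%), 5 fell (4.42%) and 105 did not pass, beside the same background of 2.14% and 2.87%. The changes lay in the adaptors TRADD and FAF1, the deubiquitinase CYLD, and BID and CYCS of the mitochondrial branch. Without siControl replicate 3, 18 rose (15.9%, beside 7.87% of all probe sets) and 14 fell (12.4%, beside 11.0%, so the falls lay near the background). With any other single array left out 0 rose and 1 fell by limma (10 to 20 higher and 9 to 15 lower at an unadjusted p under 0.05).

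Among 17 adaptors and regulators of the receptor complexes, with 42 probe sets, 3 probe sets rose, 3 fell and 36 did not pass. That was 7.14% of the list each way, beside 2.14% higher and 2.87% lower of all probe sets. TRADD, the adaptor of TNF receptor 1, rose on 2 of 3 probe sets. On 1729_at it read 11.08, 11.03 and 11.09 on the controls and 11.40, 11.32 and 11.37 on siTIG1, a rise of 0.30 ± 0.05 (SE, limma adjusted p = 0.027). CYLD, which removes ubiquitin chains from the TNF receptor complex, rose on 1 of 7 probe sets (60084_at, 0.27 ± 0.05 SE, limma adjusted p = 0.043), a dim one at 7.32 in the controls, while 3 of its probe sets had negative differences.

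FAF1, a FAS-associated factor, fell on 3 of 5 probe sets and was negative on all 5. On 236200_at it read 8.65, 8.73 and 8.60 on the controls and 7.96, 7.95 and 8.01 on siTIG1. It fell by 0.69 ± 0.06 (SE, limma adjusted p = 0.0035), with the groups far apart. FADD, the adaptor that links FAS and the TRAIL receptors to CASP8, was looked up after the values were seen. It read 11.76, 12.04 and 11.72 against 11.82, 11.71 and 11.76, a difference of -0.08 ± 0.09 (SE, limma adjusted p = 0.73). Without siControl replicate 3, TRADD, CYLD, PEA15 and OTULIN rose on 8 probe sets and FAF1 fell on 4, or 19.0% and 9.52% of the list, beside 7.87% and 11.0% of all probe sets.

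Among 10 genes from BID to the caspase substrates, with 27 probe sets, none rose, 2 fell and 25 did not pass. The falls were 7.41% of the list, beside 2.87% of all probe sets, and 2.14% of all probe sets rose. BID, which CASP8 cleaves to reach the mitochondria, read 9.97, 9.94 and 9.84 on the controls and 9.61, 9.49 and 9.56 on siTIG1 (227143_s_at). It fell by 0.36 ± 0.06 (SE, limma adjusted p = 0.027), and its other 2 probe sets differed by -0.11 and -0.06. CYCS, cytochrome c, fell by 0.41 ± 0.08 (SE, limma adjusted p = 0.0469) on the dim 244546_at only. Its bright probe set 208905_at differed by -0.02 ± 0.05 (SE). The executioner caspase CASP6 had the largest positive difference of the list, 1.21 ± 0.40 (SE, 209790_s_at), which did not pass (limma adjusted p = 0.17). Its controls read 10.12, 9.99 and 8.52 and its siTIG1 arrays 10.79, 10.76 and 10.70. Without the low siControl replicate 3 array it rose by 0.69 (limma adjusted p = 0.00012), and APAF1 and CASP9 also rose while BID, CYCS, DFFB and PARP1 fell. That made 5 rises and 5 falls, or 18.5% of the list each way, beside 7.87% higher and 11.0% lower of all probe sets.

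Of 12 other ligands and receptors (20 probe sets) and 11 other IAP proteins and antagonists (24 probe sets), 0 probe sets passed limma with all arrays. At an unadjusted p under 0.05 by limma there were 6 of 20 and 9 of 24. Both were larger shares than the 19.1% of all probe sets at that level. Without siControl replicate 3, TNFRSF1A and TNFRSF21 rose and TNFSF15 and TNFRSF12A fell in the first list, on 1 probe set each. In the second, HTRA2 and COMMD1 rose on 3 probe sets and BIRC5 and BIRC6 fell on 3. These counts were 2 of 20 each way in the first list and 3 of 24 (12.5%) each way in the second, beside the same 7.87% and 11.0%. On the BIRC5 probe set concerned, 202094_at, siControl replicate 3 read 9.70 and the other controls 10.91 and 10.82.

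**Figure D5:**
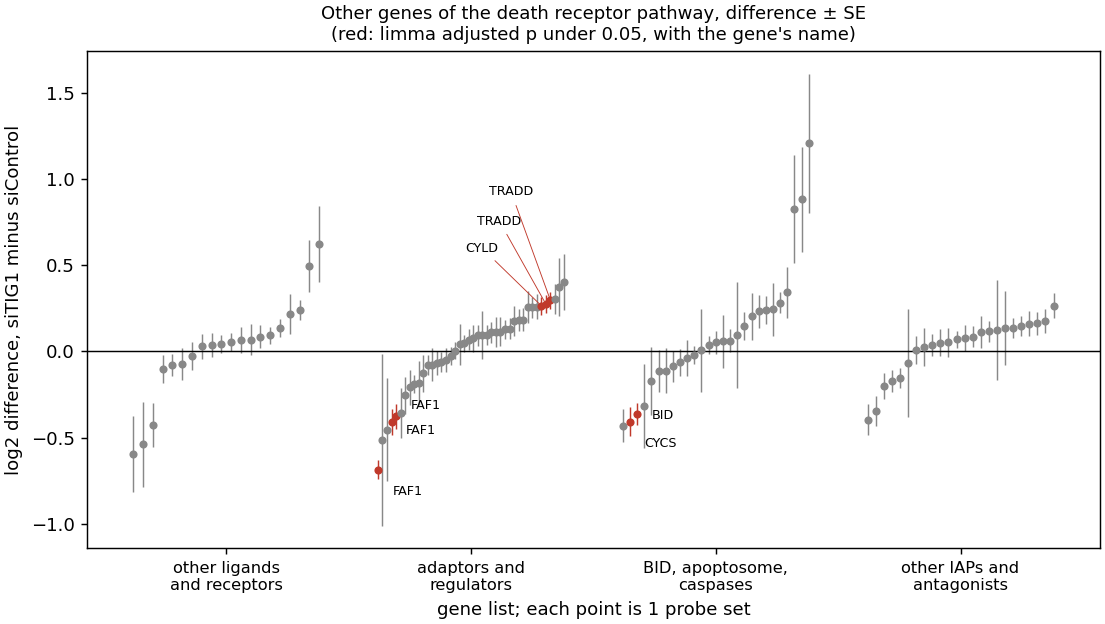
Log2 difference ± SE (y axis) of the 113 probe sets of the other pathway genes, ordered within 4 gene lists (x axis). Red points passed limma at an adjusted p under 0.05 and carry the gene's name: TRADD and CYLD above 0, FAF1, BID and CYCS below.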

How the data were processed

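The deposited table holds log2 signals of Affymetrix HG-U133 Plus arrays, 1 value per probe set and array, as the authors processed them. Per the submitters' processing notes MAS5 and RMA were used, with no role or version given, and the log base was taken as 2 from the range of 4.29 to 15.59. Array medians were 7.87 to 7.90, so the values were used as deposited, and a shift of most genes could not be seen. Of 54675 probe sets, 62 controls were left out. Symbols came from the platform annotation, updated against RefSeq GRCh38.p14 (19735 of 19775 genes), and array coordinates were not used. Some listed genes were not analysed here.

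Differences between the groups were tested on every probe set by lmFit and eBayes of limma 3.58.1 under R 4.3.3 (2-sided, no block), with Benjamini-Hochberg adjustment over 54613 probe sets. The fit was also run on simulated arrays, independent and of equal spread, with changes larger than any member's. That run checked the code and not the calls made here. Exact permutation tests used scipy 1.17.1. The members and lists were chosen with earlier results of these data known. Probe sets past the threshold in either fit, or else the brightest of a gene (x_at only where no other), are given by array, and pathway genes are named where a probe set passed. Other probe sets given by array or by value (among them FADD, CASP6, and the dissenting ones of FAS and CFLAR) were chosen after their values were seen. Genes compared for pattern had an SD of at least 0.2. The labels do not say whether replicates were separate cultures, so p-values measure the spread between these arrays, and their number limits the precision. The labels state no pairing, so the numbers were not taken as pairs. Deviations of same-numbered arrays correlated at -0.04, -0.01 and -0.01. With 3 arrays per group and siControl replicate 3 apart from the other controls, these values cannot settle whether the numbers are pairs. Alternatives were other normalizations, filters, feature sets, variance models, array weights, a block and each array left out.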

Additional observations from a re-analysis of the deposited data

How the results depend on the processing

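With limma and all arrays 3 member probe sets rose and 1 fell. The rises numbered 5 with quantile normalization, 9 with array weights, 0 without x_at and s_at probe sets (2 at an unadjusted p under 0.05) and 0 with the replicate number as a block (9 unadjusted), and 0 to 9 with 1 array left out (9 without siControl replicate 3, 0 without any other). The falls numbered 3 with array weights and 1 to 3 with 1 array left out (3 without siControl replicate 3). The TNFRSF10A call on 231775_at held in all of these, the block included. In the pathway lists 3 rose and 5 fell: 1 and 2 with 1 probe set per gene, 1 and 3 with trended robust eBayes, 18 and 11 with array weights, 0 and 1 with the block (20 rises unadjusted), 2 falls without x_at and s_at probe sets, and 0 to 18 and 1 to 14 with 1 array left out. Over all probe sets 1171 rose and 1566 fell: 624 and 818 with 1 probe set per gene, 3876 and 5049 with array weights, 215 and 263 with the block, 652 rises without x_at and s_at probe sets, and 155 to 4297 and 165 to 6027 with 1 array left out, highest without siControl replicate 3. Fewer features or arrays enter some of these fits; otherwise the cause was not tested. Differences near 0 turned sign. TNFRSF10C was at 0.046 with array weights and ran from -0.079 to 0.056 with 1 array left out, TNFRSF10D was at -0.067 and ran from -0.044 to 0.115, and XIAP was at 0.006 and ran from -0.270 to 0.024, each turning without siControl replicate 3 (TNFRSF10D also without siTIG1 replicate 1, at -0.028). TNFSF10 could not be fitted after the filter on dim probe sets, since its means lie below the median. No alternative tested a detection limit, which these values do not carry.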
